A study of Homo sapiens with 12 samples.

Results

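The genes described here are 35 genes that build cholesterol and fatty acids or control their synthesis, of 20046 genes named on the array. They were taken by symbol from the pathways, without a rule on their values but with earlier results of these data known, and comprised 19 genes of the sterol branch, 5 regulators and 11 genes of the fatty acid branch. RNA of JIMT1 cells, a HER2-positive, ER-negative and PR-negative ductal breast cancer line that resists trastuzumab, was read on Illumina HumanHT-12 arrays in 6 groups of 2 biological replicates each. Cells grew as a monolayer for 7 days (2D7d), on top of growth factor reduced Matrigel, a basement membrane extract, for 4 or 7 days (MG4d, MG7d), on polyHEMA, a coating to which cells cannot attach, for 4 or 7 days (PH4d, PH7d), or as fat pad tumors of BALB/C-nude mice taken at 43 days (xenograft). All groups held the same line without a drug or a genetic change. The Matrigel cultures had lower serum than the 2D and polyHEMA cultures, and Dispase dissolved the gel before RNA was taken, so gel, serum and enzyme cannot be told apart. The monolayer was taken at 7 days only. Against it, the age and the kind of the 4-day cultures and the 43-day tumors cannot be told apart. The tumor cells were injected with Matrigel, nude mice lack T cells, and a tumor also holds cells of the host.

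Cells make cholesterol from acetyl-CoA through the mevalonate steps, squalene and a series of sterol intermediates, and they make fatty acids from the same acetyl-CoA through malonyl-CoA. Transcription of both branches is driven by the sterol regulatory element-binding proteins, of which SREBF2 mainly serves the sterol branch and SREBF1 the fatty acid branch. SCAP carries these proteins to the Golgi, where they are cut and set free, and the INSIG proteins hold SCAP back in the endoplasmic reticulum when sterols are plentiful. Cells take lipid and sterol from serum, and many breast tumors with high HER2 also have high FASN.

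Of the 35 genes, 33 had a probe named to them alone and 31 were detected on both arrays of at least 1 group and could be tested, namely 17 sterol genes, 5 regulators and 9 fatty acid genes. FDFT1 and ACSL3 had no probe named to them here, and STARD4 and FADS2 were detected on 0 of 12 arrays. Values are log2 intensities after normalization, so that a difference of 1 is 2-fold, and they are compared between groups for one probe at a time. A gene is said to have risen or fallen where limma gave an adjusted p under 0.05 over all 10970 genes tested and the change was at least 2-fold, and values after ± are standard errors. CYP51A1 was detected on 6 arrays, SREBF2 on 8 and INSIG2 on 11, and the other 28 genes on every array. In bulk RNA of this kind, fewer cells with a transcript and less of it per cell cannot be told apart, and 2 arrays a group limit the precision of every value below.

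The arrays themselves stood apart in 1 respect. Between the 2 replicates, 4193 of 10970 genes differed at least 2-fold in PH4d and 3345 in PH7d, but 216 in 2D7d and 15 to 21 in the other groups. Among the 31 genes these numbers were 12 in PH4d, 8 in PH7d, 1 in 2D7d (INSIG2) and 0 in MG4d, MG7d and the xenografts, so polyHEMA values of the genes described in full are given per array. Median raw intensity ran from 95.1 to 107 and 13952 to 18430 probes were detected per array. The 7 epithelial and HER2 amplicon markers of the line were detected on all 12 arrays and PGR on none, while ESR1, of a line labelled ER-negative, was detected on all 12 at log2 values of 6.12 to 7.86. Of 6 fibroblast markers, DCN and LUM were higher in the xenografts, where the summed level of the list was 521 to 674 against 187 to 275 elsewhere on the linear scale. LUM was at 6.62 and 7.22 there but also at 6.51 on PH7d replicate 1, and PDGFRB was detected on 0 arrays. The summed level of 7 adipocyte markers was 683 to 721 in the xenografts, 585 to 1040 in the polyHEMA groups and 441 to 537 in the 2D7d and Matrigel groups, with LEP and CFD making up most of it and ADIPOQ and LPL detected on 0 arrays. Of 5 macrophage markers CD163 was detected on 0 arrays, and the summed level was 1220 to 1270 in the xenografts and 701 to 1320 elsewhere. The list did not move alike. AIF1 was at log2 values of 7.79 and 8.03 in the xenografts and between 4.82 and 6.15 on all other arrays. CD68 was also highest in the xenografts (9.05 and 8.95). CD14 was lowest there, at 5.69 and 6.11 against 6.86 to 8.69 on all other arrays. The summed level of 4 endothelial markers was 333 to 404 in the polyHEMA groups and 128 to 209 elsewhere, with VWF and KDR detected on 0 arrays. The part that cells of other types play in the results was not tested.

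**Figure D1:**
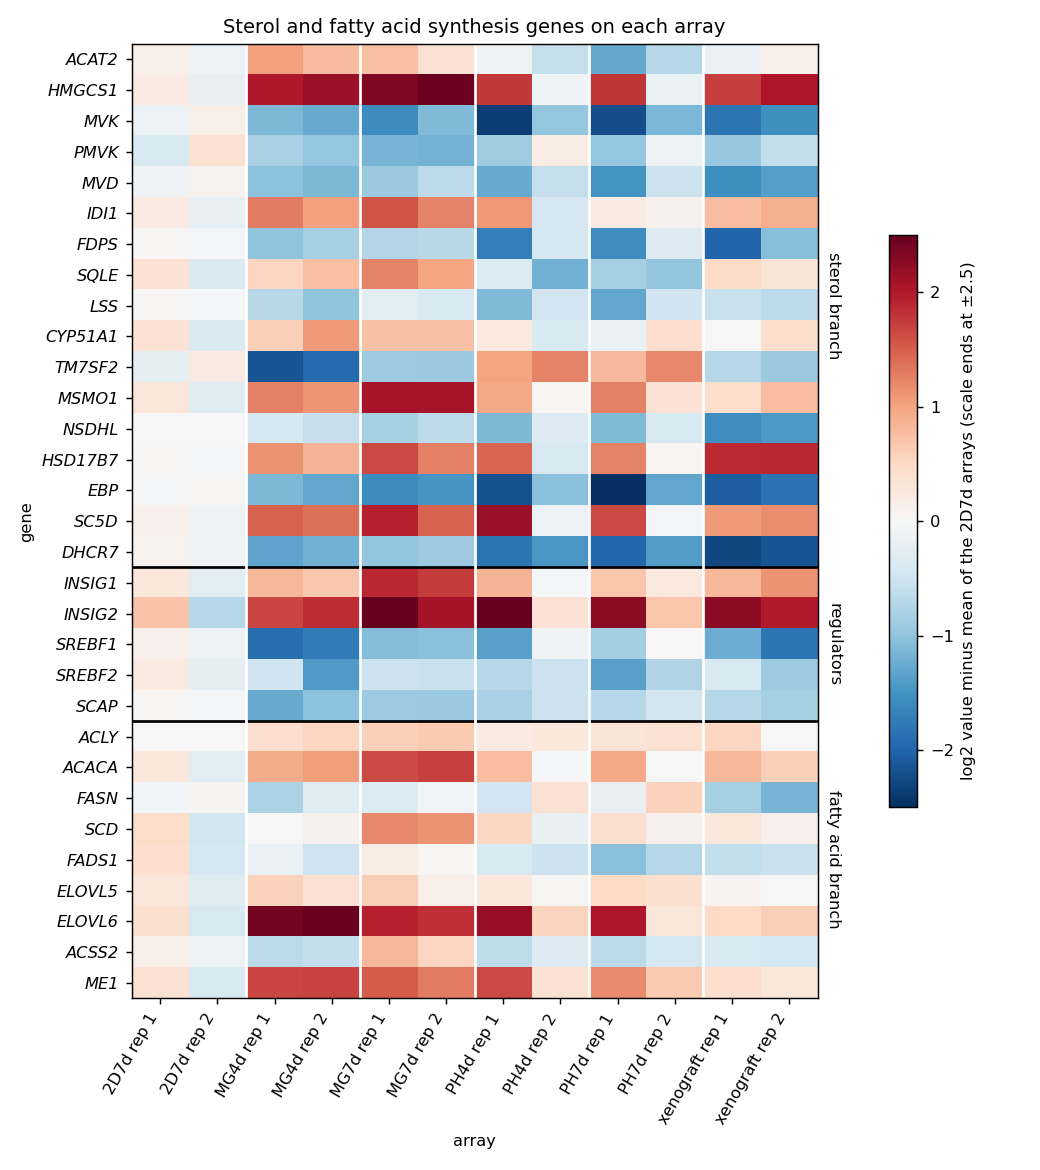
Log2 value of each of the 31 tested genes (vertical, grouped by branch) on each of the 12 arrays (horizontal, 2 per group), minus the mean of the 2D7d arrays, from -2.5 in blue to 2.5 in red with larger differences drawn at the limit. HMGCS1, SC5D and HSD17B7 are red and MVK, EBP and DHCR7 blue in the Matrigel and xenograft columns, and the replicates of PH4d and PH7d differ in color for 12 and 8 genes by at least 2-fold.

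The 31 genes did not move as 1 group against the monolayer. In MG4d 2 of them rose and 5 fell, where 10.2 percent of all genes rose and 11.5 percent fell. In MG7d 8 rose and 1 fell, against 10.8 percent higher and 10.3 percent lower over all genes. In the xenografts 1 rose and 7 fell, against 16.4 percent higher and 14.7 percent lower. PH4d had 1 gene higher and 1 lower, against 2.58 percent and 1.84 percent of all genes, and PH7d had 1 higher and 2 lower, against 3.87 percent and 2.36 percent. These 5 comparisons share the same 2D7d arrays and are therefore not independent of one another. Over all 6 groups the moderated F test of limma passed for 8 of the 31 genes, or 5 sterol genes, 2 regulators and 1 fatty acid gene, against 26 percent of all genes. The 8 genes were ACAT2, SQLE, TM7SF2, MSMO1, DHCR7, INSIG1, SCAP and ACSS2. Scaling each array to a common median in place of quantile normalization gave 4 higher and 4 lower in MG4d, 8 and 3 in MG7d and 2 and 8 in the xenografts. In MG7d it took SQLE (0.96, adjusted p = 0.0646) and SCD (0.90, adjusted p = 0.0775) out of the calls and brought INSIG2 and ELOVL6 in. That scaling also moved the median over all genes by over 0.1 in these comparisons, to 0.18 in MG7d, where 1758 genes were then higher and 665 lower in place of 1187 and 1133. With the fold limit dropped, MG7d had 12 of 31 genes past the adjusted p, where 24.5 percent of all genes passed, and the xenografts had 11 of 31, where 36.6 percent passed.

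The sterol branch held genes that were higher and genes that were lower, as all genes together did. Its median log2 change against 2D7d was -0.51 in MG4d, -0.33 in MG7d, -0.61 in the xenografts, -0.35 in PH4d and -0.74 in PH7d, where the medians over all genes lay between -0.07 and 0.05. By sign, 8 of the 17 genes were higher and 9 lower in each Matrigel group, and 7 were higher and 10 lower in the xenografts. All genes also split almost evenly, with 5222 higher and 5748 lower in MG4d. The all-gene numbers were 5450 and 5520 in MG7d and 5526 and 5444 in the xenografts. With so even a split, each Matrigel median of the sterol branch is a single gene beside a gap. In MG4d it is NSDHL (-0.51), with SQLE (0.65) next above it. In MG7d it is LSS (-0.33), with ACAT2 (0.575) next above it. These medians therefore do not measure a shift of the whole branch. No sterol gene rose in MG4d and 3 fell, against 10.2 and 11.5 percent of all genes. In MG7d 4 rose and 1 fell, against 10.8 and 10.3 percent. In the xenografts, which also hold cells of the host, 1 rose and 6 fell, against 16.4 and 14.7 percent. At an unadjusted p under 0.05, 11 of 17 sterol genes passed in MG4d, where 48.2 percent of all genes did. The fatty acid branch had medians of 0.48, 0.68, 0.20, 0.17 and 0.35 in the same order of groups, and without 2D7d replicate 2 it was 0.19 in MG4d and -0.26 in the xenografts. With the mean of all kept probes of a gene in place of 1 probe, it was 0.21 in MG4d, 0.39 in MG7d and 0.02 in the xenografts, and the sterol median in MG7d was -0.10.

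Among the sterol genes that were higher, HMGCS1 led in size. It encodes HMG-CoA synthase, which makes the precursor of mevalonate, and its log2 values, replicate 1 first here and below, were 9.41 and 8.98 in 2D7d, 11.19 and 11.35 in MG4d, 11.52 and 11.64 in MG7d, 10.92 and 11.22 in the xenografts, 10.97 and 9.08 in PH4d and 10.98 and 9.02 in PH7d. All Matrigel and xenograft arrays lay above 10.9 and both 2D7d arrays below 9.5, while polyHEMA replicate 1 sat with the gel cultures and replicate 2 with the monolayer. HMGCS1 rose 5.24-fold in MG7d (log2 2.39 ± 0.68, adjusted p = 0.0415), whereas the change of 2.08 ± 0.68, adjusted p = 0.0507 in MG4d and that of 1.88 ± 0.68, adjusted p = 0.054 in the xenografts missed the threshold. MSMO1, the oxidase that begins the removal of the methyl groups at carbon C4 of the sterol ring, had values of 9.60 and 8.99 in 2D7d, 10.56 and 10.39 in MG4d, 11.36 and 11.36 in MG7d, 9.73 and 10.07 in the xenografts, 10.23 and 9.34 in PH4d and 10.55 and 9.65 in PH7d. The groups 2D7d and MG7d were furthest apart, and the 2 MG7d arrays were equal to 2 decimals. MSMO1 rose 4.19-fold in MG7d (2.07 ± 0.39, adjusted p = 0.022), and its change in MG4d was 1.18 ± 0.39, adjusted p = 0.0527. The MSMO1 probes did not all move alike, since a second probe was 3.14 higher and another gave -0.89 on the log2 scale in MG7d.

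IDI1, the isomerase that supplies dimethylallyl diphosphate, had values of 7.34 and 6.95 in 2D7d, 8.44 and 8.17 in MG4d, 8.72 and 8.38 in MG7d, 7.91 and 8.06 in the xenografts, 8.23 and 6.73 in PH4d and 7.34 and 7.26 in PH7d. Both Matrigel groups and the xenografts lay above the monolayer, and IDI1 rose in MG7d (1.40 ± 0.42, adjusted p = 0.0455). Its changes of 1.16 ± 0.42, adjusted p = 0.066 in MG4d and 0.84 ± 0.42, adjusted p = 0.128 in the xenografts were not called. SQLE, squalene epoxidase, the first oxygen-requiring enzyme of the sterol steps, had values of 11.46 and 10.74 in 2D7d, 11.64 and 11.86 in MG4d, 12.34 and 12.08 in MG7d, 11.57 and 11.42 in the xenografts, 10.75 and 9.90 in PH4d and 10.27 and 10.12 in PH7d. The MG7d arrays were the 2 highest and the PH7d arrays among the 3 lowest. SQLE rose in MG7d (1.11 ± 0.34, adjusted p = 0.0457), and its second probe was 0.75 higher there. The call was lost with the mean of its probes (0.93, under 2-fold). HSD17B7, which reduces the C3 ketone left after each C4 methyl group is removed, had values of 10.00 and 9.93 in 2D7d, 11.10 and 10.82 in MG4d, 11.63 and 11.24 in MG7d, 11.83 and 11.85 in the xenografts, 11.42 and 9.57 in PH4d and 11.20 and 10.02 in PH7d, with the 2 xenograft arrays the highest of all. It rose 3.66-fold in the xenografts (1.87 ± 0.56, adjusted p = 0.035), while the MG7d change was 1.46 ± 0.56, adjusted p = 0.07. HSD17B7 has a near-identical pseudogene, and whether its probe also reads that copy was not tested.

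A further 3 sterol genes were higher on both Matrigel arrays without a call. SC5D, which puts in the C5 double bond late in the pathway, had values of 8.02 and 7.78 in 2D7d, 9.37 and 9.29 in MG4d, 9.84 and 9.37 in MG7d, 8.96 and 9.06 in the xenografts, 10.05 and 7.75 in PH4d and 9.54 and 7.87 in PH7d, and its PH4d replicates differed by 2.30. The SC5D change was 1.71 ± 0.70, adjusted p = 0.084 in MG7d, with the widest standard error of the branch. ACAT2, the cytosolic thiolase that joins acetyl-CoA units, had values of 10.44 and 10.13 in 2D7d, 11.32 and 11.08 in MG4d, 11.05 and 10.68 in MG7d, 10.12 and 10.43 in the xenografts, 10.20 and 9.70 in PH4d and 9.01 and 9.57 in PH7d. It was highest in MG4d and lowest in PH7d, and it changed by 0.91 ± 0.30, adjusted p = 0.0506 in MG4d. CYP51A1, lanosterol demethylase, ranged from 4.89 to 6.33 and was not well above background on the 2D7d and PH7d arrays, so that no fold change against the monolayer is given for it.

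**Figure D2:**
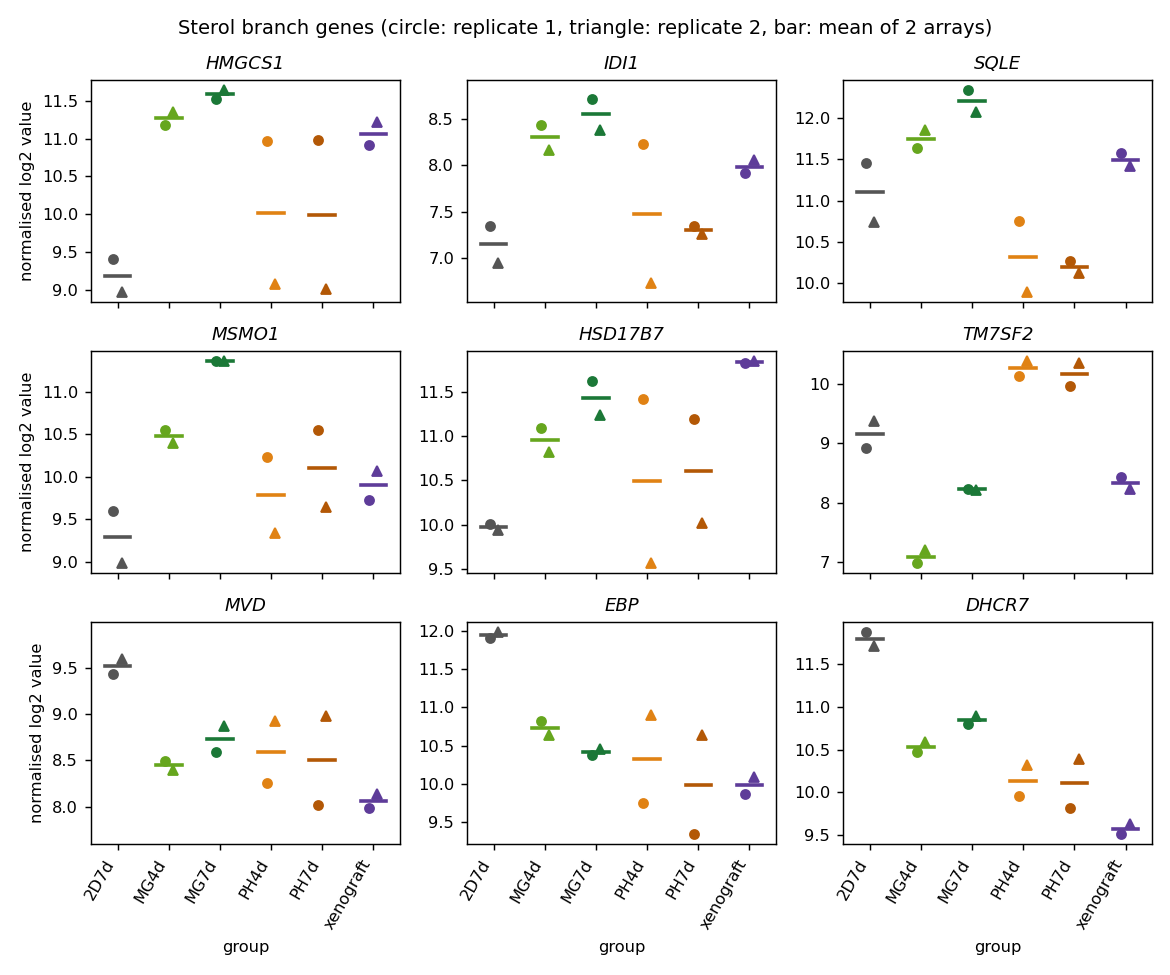
Log2 values of 9 sterol genes (one panel each, own vertical scale) on the 2 arrays of each group (horizontal), with each dot one array and the bar the group mean. HMGCS1, IDI1 and MSMO1 sit higher in MG7d than in 2D7d, EBP and DHCR7 sit lower in every group than in 2D7d, and TM7SF2 is lowest in MG4d and highest in the polyHEMA groups.

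Of the sterol genes that were lower, DHCR7 and EBP act late in the pathway. DHCR7, the reductase that turns the last precursor into cholesterol, had values of 11.87 and 11.70 in 2D7d, 10.48 and 10.58 in MG4d, 10.80 and 10.89 in MG7d, 9.51 and 9.64 in the xenografts, 9.96 and 10.32 in PH4d and 9.82 and 10.40 in PH7d. Both monolayer arrays were the highest of the 12 and the xenografts the lowest. DHCR7 fell in MG4d (-1.26 ± 0.26, adjusted p = 0.019), in PH4d (-1.65 ± 0.26, adjusted p = 0.00896), in PH7d (-1.68 ± 0.26, adjusted p = 0.00618) and, 4.63-fold, in the xenografts (-2.21 ± 0.26, adjusted p = 0.00123). In MG7d it was -0.94 ± 0.26, adjusted p = 0.0383, under the 2-fold limit, and its second probe gave -0.83 there and -2.16 in the xenografts. The xenograft call held with any 1 of the 4 arrays left out, with adjusted p from 0.0136 to 0.023. EBP, the sterol isomerase also known as the emopamil-binding protein, had values of 11.90 and 11.98 in 2D7d, 10.82 and 10.64 in MG4d, 10.38 and 10.46 in MG7d, 9.87 and 10.09 in the xenografts, 9.76 and 10.90 in PH4d and 9.35 and 10.64 in PH7d. It was again highest on both monolayer arrays, and the polyHEMA replicates were over 1 unit apart. EBP fell in MG7d (-1.52 ± 0.45, adjusted p = 0.0445), in PH7d (-1.95 ± 0.45, adjusted p = 0.0356) and in the xenografts (-1.96 ± 0.45, adjusted p = 0.02), and was -1.21 ± 0.45, adjusted p = 0.069 in MG4d.

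Several mevalonate enzymes had the same direction. MVD, which decarboxylates mevalonate diphosphate, had values of 9.43 and 9.60 in 2D7d, 8.49 and 8.40 in MG4d, 8.59 and 8.87 in MG7d, 7.99 and 8.14 in the xenografts, 8.26 and 8.92 in PH4d and 8.02 and 8.98 in PH7d, with the xenografts lowest by their mean. MVD fell in MG4d (-1.07 ± 0.34, adjusted p = 0.0492) and in the xenografts (-1.45 ± 0.34, adjusted p = 0.0214). MVK, mevalonate kinase, had values of 8.69 and 8.96 in 2D7d, 7.71 and 7.56 in MG4d, 7.26 and 7.71 in MG7d, 7.00 and 7.29 in the xenografts, 6.46 and 7.86 in PH4d and 6.61 and 7.69 in PH7d, and FDPS, farnesyl diphosphate synthase, had values of 8.84 and 8.79 in 2D7d, 7.81 and 7.97 in MG4d, 8.07 and 8.12 in MG7d, 6.83 and 7.75 in the xenografts, 7.11 and 8.37 in PH4d and 7.27 and 8.48 in PH7d. Both were highest on the monolayer arrays, and in polyHEMA their replicate 1 arrays were more than 1 unit below replicate 2 in PH4d and PH7d. In the xenografts MVK fell (-1.68 ± 0.48, adjusted p = 0.0314), and so did FDPS (-1.52 ± 0.50, adjusted p = 0.0436). NSDHL, the dehydrogenase of the C4 demethylation complex in which MSMO1 also acts, had values of 11.19 and 11.23 in 2D7d, 10.78 and 10.63 in MG4d, 10.37 and 10.56 in MG7d, 9.67 and 9.77 in the xenografts, 10.08 and 10.88 in PH4d and 10.10 and 10.83 in PH7d. It fell in the xenografts (-1.49 ± 0.32, adjusted p = 0.0171) and was -0.51 in MG4d and -0.75 in MG7d, neither of them called. PMVK, phosphomevalonate kinase, had values of 7.90 and 8.67 in 2D7d, 7.49 and 7.33 in MG4d, 7.13 and 7.11 in MG7d, 7.34 and 7.67 in the xenografts, 7.41 and 8.47 in PH4d and 7.33 and 8.16 in PH7d. Its change was -1.17 ± 0.42, adjusted p = 0.0611 in MG7d, past 2-fold but not called. LSS, lanosterol synthase, lay between 9.35 and 10.68 and was not called in any comparison with 2D7d.

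TM7SF2, a sterol reductase that removes the C14 double bond, was the only one of the 31 genes called lower in a Matrigel group and higher in a polyHEMA group. Its values were 8.92 and 9.38 in 2D7d, 6.98 and 7.20 in MG4d, 8.23 and 8.22 in MG7d, 8.43 and 8.23 in the xenografts, 10.14 and 10.39 in PH4d and 9.97 and 10.36 in PH7d. MG4d held the 2 lowest arrays and the 4 polyHEMA arrays were the 4 highest, with replicates close in every group. TM7SF2 fell 4.16-fold in MG4d (-2.06 ± 0.25, adjusted p = 0.0101) and rose in PH4d (1.11 ± 0.25, adjusted p = 0.0418) and in PH7d (1.01 ± 0.25, adjusted p = 0.0466). In MG7d the change was -0.93 ± 0.25, adjusted p = 0.0387 and in the xenografts -0.82 ± 0.25, adjusted p = 0.0372, both under 2-fold. The calls against 2D7d were lost with 1 array left out, with adjusted p of 0.06 to 0.119 in MG4d and up to 0.242 in PH4d and 0.239 in PH7d. LBR, a nuclear envelope protein with the same C14 reductase activity, rose in MG4d (1.76 ± 0.55, adjusted p = 0.0455).

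Promoter sequences are shown for genes of the sterol branch that were higher (MSMO1, HMGCS1), lower (EBP, DHCR7) or mixed (TM7SF2) and for the regulator SREBF2 so that they can be read side by side. Each is the 200 bases before the first listed start in RefSeq GRCh38.p14, read 5′ to 3′ on the strand of the gene. Capitals mark CCAAT, the box bound by nuclear factor Y, on either strand (ATTGG on the other) and TCACNCCAC, the core of the sterol regulatory element. MSMO1 is from chr4:165327469-165327668 (plus strand), HMGCS1 from chr5:43313413-43313612 (minus), EBP from chrX:48521608-48521807 (plus), DHCR7 from chr11:71448394-71448593 (minus), TM7SF2 from chr11:65111672-65111871 (plus) and SREBF2 from chr22:41832905-41833104 (plus).
MSMO1: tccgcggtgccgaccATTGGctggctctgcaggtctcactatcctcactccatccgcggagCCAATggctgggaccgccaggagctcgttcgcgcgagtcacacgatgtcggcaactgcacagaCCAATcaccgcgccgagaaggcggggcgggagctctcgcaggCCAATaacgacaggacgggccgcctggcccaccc
HMGCS1: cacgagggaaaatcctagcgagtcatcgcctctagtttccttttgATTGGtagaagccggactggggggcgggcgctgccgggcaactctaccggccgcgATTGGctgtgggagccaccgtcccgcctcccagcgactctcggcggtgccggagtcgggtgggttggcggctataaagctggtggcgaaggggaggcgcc
EBP: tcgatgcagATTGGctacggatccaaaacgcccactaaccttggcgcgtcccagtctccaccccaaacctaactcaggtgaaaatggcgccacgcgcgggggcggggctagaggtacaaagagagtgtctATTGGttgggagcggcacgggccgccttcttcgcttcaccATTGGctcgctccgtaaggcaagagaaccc
DHCR7: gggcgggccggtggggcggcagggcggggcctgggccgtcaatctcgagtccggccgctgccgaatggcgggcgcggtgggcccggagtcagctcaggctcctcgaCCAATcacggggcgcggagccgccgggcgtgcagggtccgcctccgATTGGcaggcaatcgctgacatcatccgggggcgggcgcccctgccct
TM7SF2: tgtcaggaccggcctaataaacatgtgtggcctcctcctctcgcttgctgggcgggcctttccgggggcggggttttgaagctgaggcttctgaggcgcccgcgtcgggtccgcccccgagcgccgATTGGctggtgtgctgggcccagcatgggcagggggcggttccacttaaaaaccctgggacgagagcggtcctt
SREBF2: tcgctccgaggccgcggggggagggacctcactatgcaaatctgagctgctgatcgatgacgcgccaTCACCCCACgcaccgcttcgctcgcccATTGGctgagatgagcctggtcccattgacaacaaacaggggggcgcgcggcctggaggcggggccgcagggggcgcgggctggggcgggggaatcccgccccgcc
MSMO1 held 4 CCAAT boxes, EBP 3, HMGCS1 and DHCR7 2 each and TM7SF2 and SREBF2 1 each, so the box stood before genes that were higher and before genes that were lower.

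Over the window from 250 bases before to 50 after the start, 31 of the 35 genes had a RefSeq entry, and ACAT2, FDFT1, SQLE and FASN had none. CCAAT was found in 14 of 16 sterol genes, 2 of 5 regulators and 7 of 10 fatty acid genes, and in 39.7 percent of the 27305 genes in the table. The GC box GGGCGG was found in 29 of the 31 genes and in 48.3 percent of all genes. The E-box CACGTG was found in 5, namely LSS, SC5D, INSIG1, SCAP and ELOVL5, and in 8.77 percent of all genes. TCACNCCAC was found in 1, SREBF2, where TCACCCCAC ended 125 bases before the start (-133 to -125), and in 1.39 percent of all genes. All motifs were searched on both strands, a CCAAT match may share bases with a GGGCGG match, and a match is a description of letters and not of binding.

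**Figure D3:**
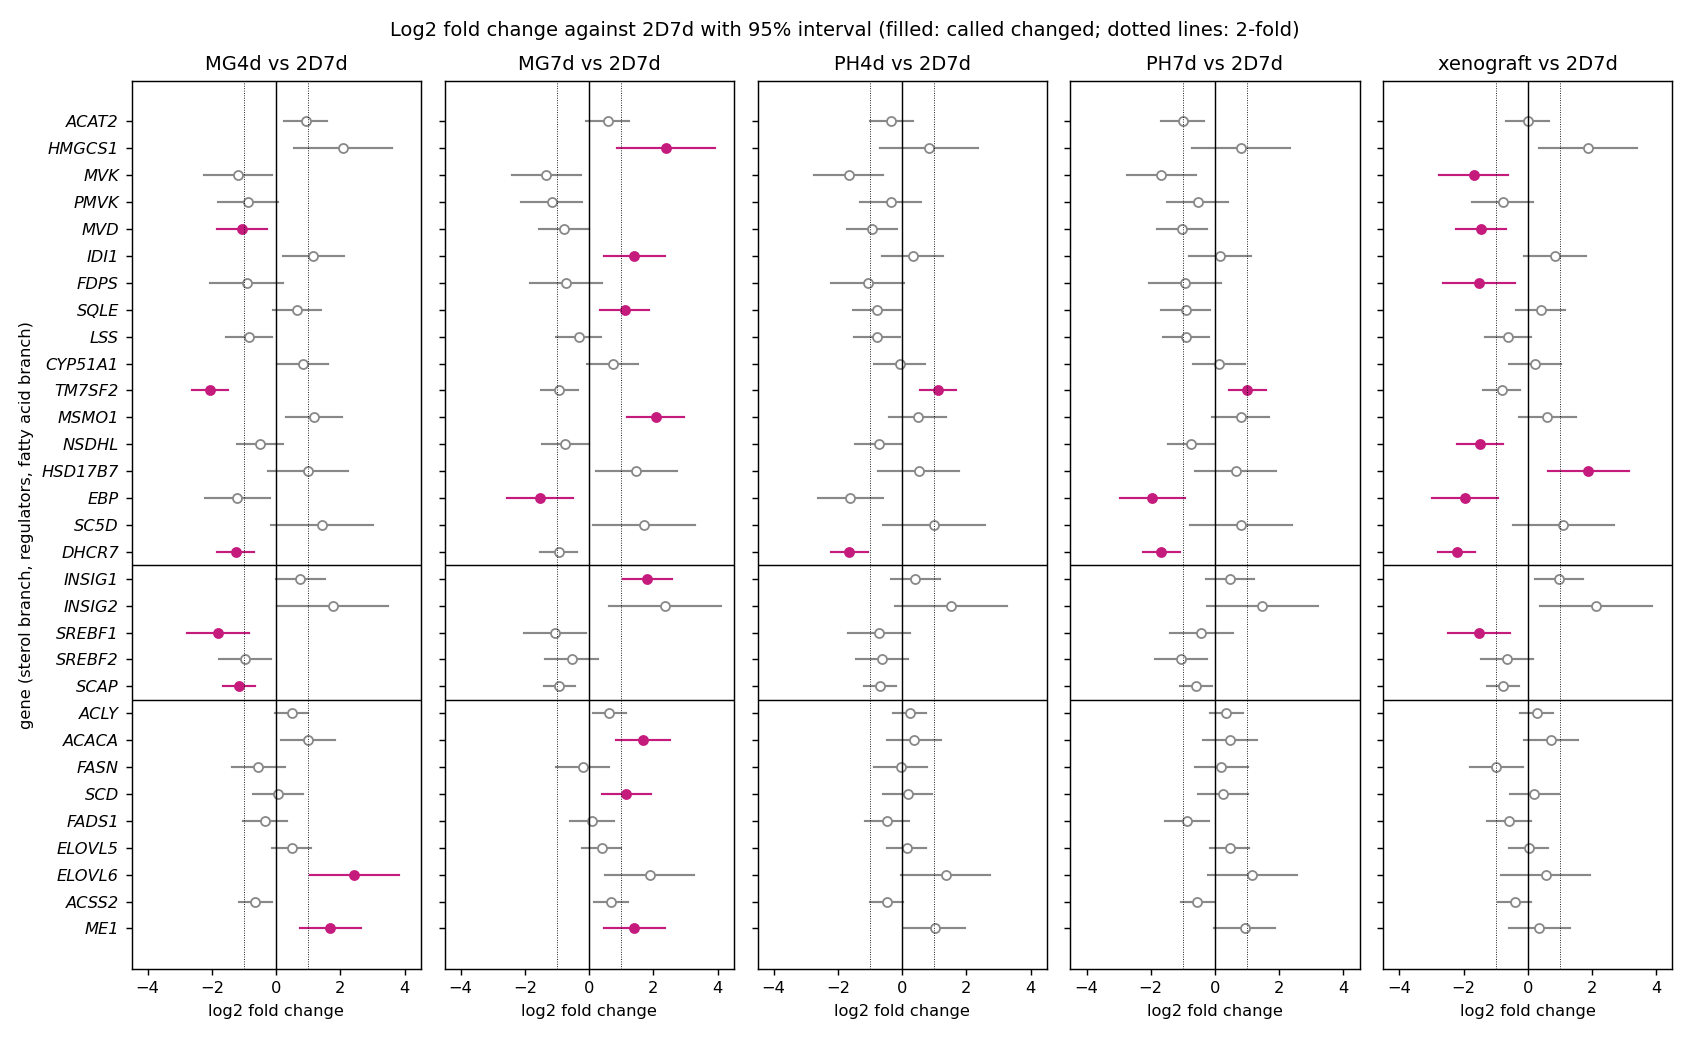
Log2 change against 2D7d (horizontal) with 95 percent confidence intervals for each of the 31 genes (vertical, by branch) in the 5 other groups (panels). Filled points passed the test and the 2-fold limit, which were 7 genes in MG4d, 9 in MG7d, 8 in the xenografts, 2 in PH4d and 3 in PH7d.

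The regulators had medians below 0 in all 5 comparisons with 2D7d, from -0.42 to -0.96, and the 5 genes did not share a direction. SREBF1, the transcription factor of the fatty acid branch, had values of 10.75 and 10.49 in 2D7d, 8.74 and 8.87 in MG4d, 9.54 and 9.57 in MG7d, 9.38 and 8.81 in the xenografts, 9.28 and 10.53 in PH4d and 9.77 and 10.64 in PH7d. Matrigel and xenograft arrays all lay below 9.6, both monolayer arrays above 10.4, and polyHEMA replicate 2 was at the level of the monolayer. SREBF1 fell in MG4d (-1.82 ± 0.43, adjusted p = 0.0258) and in the xenografts (-1.53 ± 0.43, adjusted p = 0.0312), and in MG7d it was -1.06 ± 0.43, adjusted p = 0.0807. Its second probe was lower as well, by -2.23 in MG4d, -1.49 in MG7d and -0.83 in the xenografts. With the mean of its probes the xenograft call was lost (-1.18, adjusted p = 0.0689). SCAP, the escort of both factors, had values of 11.88 and 11.83 in 2D7d, 10.59 and 10.82 in MG4d, 10.94 and 10.92 in MG7d, 11.15 and 11.02 in the xenografts, 11.04 and 11.33 in PH4d and 11.14 and 11.40 in PH7d. The monolayer arrays were the 2 highest, and SCAP fell 2.22-fold in MG4d (-1.15 ± 0.22, adjusted p = 0.0173). In MG7d (-0.92 ± 0.22, adjusted p = 0.033) and in the xenografts (-0.77 ± 0.22, adjusted p = 0.0317) it was lower by less than 2-fold.

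INSIG1, the sterol-sensing anchor that is itself a target of the sterol regulatory element-binding proteins, had values of 9.34 and 8.81 in 2D7d, 9.90 and 9.76 in MG4d, 10.95 and 10.83 in MG7d, 9.90 and 10.20 in the xenografts, 9.93 and 9.05 in PH4d and 9.76 and 9.31 in PH7d. MG7d stood above every other group. INSIG1 rose 3.52-fold in MG7d (1.82 ± 0.33, adjusted p = 0.0206) and was 0.97 ± 0.33, adjusted p = 0.0481 in the xenografts, under 2-fold. Its other probe gave 0.71 in MG7d and -0.22 in the xenografts, and -0.44, -0.35 and -0.42 in MG4d, PH4d and PH7d, so the probes agreed in sign in MG7d and disagreed in the other 4 groups. INSIG2, which anchors SCAP in the same way, had values of 7.44 and 6.01 in 2D7d, 8.40 and 8.56 in MG4d, 9.36 and 8.81 in MG7d, 8.96 and 8.72 in the xenografts, 9.40 and 7.09 in PH4d and 8.98 and 7.42 in PH7d. Every array outside 2D7d except PH4d replicate 2 and PH7d replicate 2 lay above 8.3, but the monolayer arrays were 1.43 apart and 1 of them was not detected. INSIG2 changed by 2.36 ± 0.77, adjusted p = 0.051 in MG7d and 2.11 ± 0.77, adjusted p = 0.0558 in the xenografts, and was not called in any group. SREBF2, the transcription factor of the sterol branch, had values of 6.81 and 6.36 in 2D7d, 6.08 and 5.16 in MG4d, 6.05 and 6.03 in MG7d, 6.19 and 5.67 in the xenografts, 5.86 and 6.05 in PH4d and 5.23 and 5.82 in PH7d. It was not well above background in PH7d, where its change of -1.06 ± 0.36, adjusted p = 0.115 did not pass the test, and it was not called in any group. By its bound SREBF2 was 1.79-fold lower in PH7d, a value that leaves out the spread between arrays. The 95 percent interval of that change was -1.87 to -0.25.

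**Figure D4:**
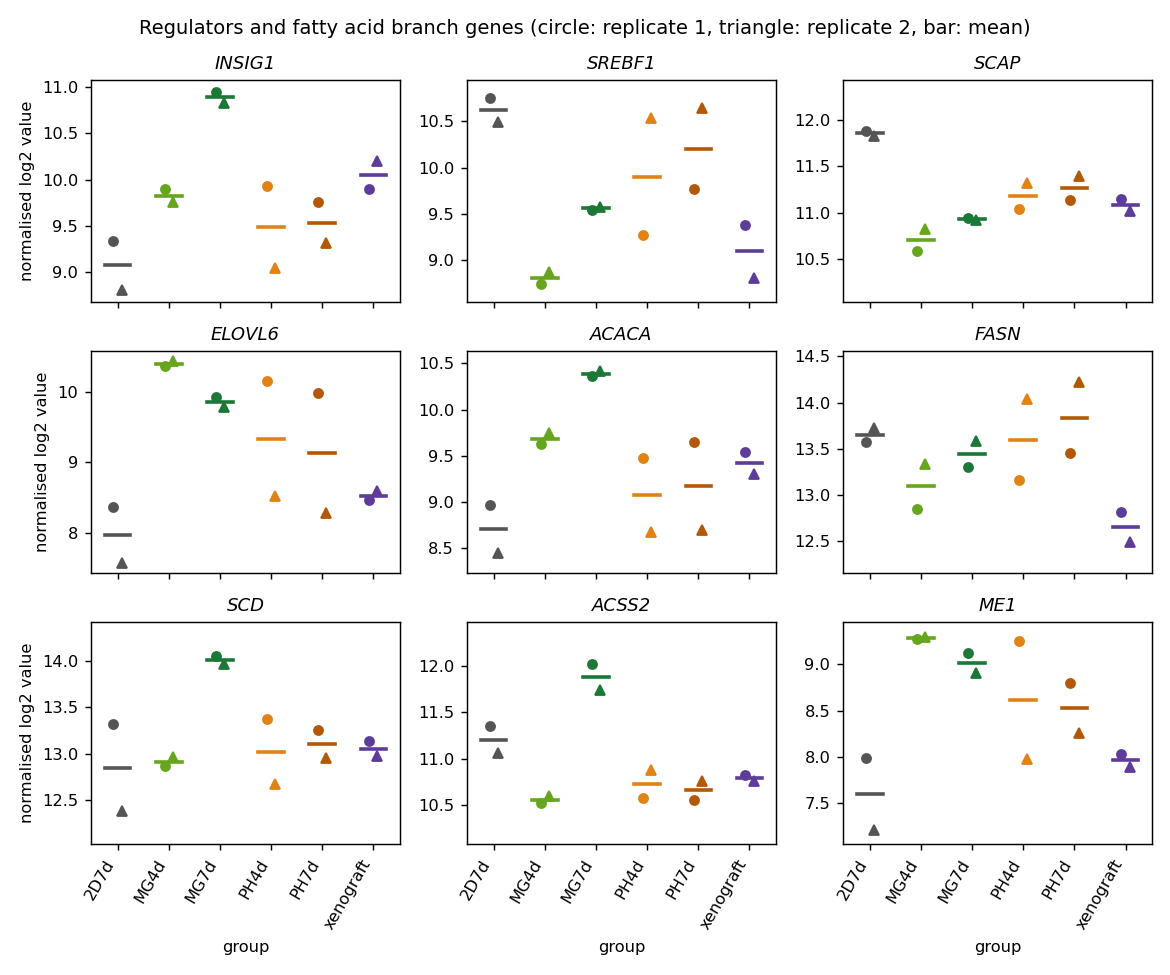
Log2 values of 3 regulators and 6 fatty acid genes (one panel each, own vertical scale) on the 2 arrays of each group (horizontal), with each dot one array and the bar the group mean. SREBF1 and SCAP have their highest mean in 2D7d, INSIG1, ACACA and ACSS2 are highest in MG7d, and ELOVL6 and ME1 sit higher in both Matrigel groups than in 2D7d.

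In the fatty acid branch 2 of 9 genes rose in MG4d and 3 rose in MG7d, against 10.2 and 10.8 percent of all genes. None fell in either, against 11.5 and 10.3 percent of all genes. No gene of the branch was called by limma in PH4d, PH7d or the xenografts. At an unadjusted p under 0.05, 1, 2 and 1 of its 9 genes passed there, against 23.9, 25.2 and 54.5 percent of all genes. ELOVL6, which lengthens the palmitate that FASN makes, had values of 8.37 and 7.57 in 2D7d, 10.36 and 10.44 in MG4d, 9.92 and 9.79 in MG7d, 8.46 and 8.59 in the xenografts, 10.15 and 8.52 in PH4d and 9.99 and 8.28 in PH7d. The Matrigel arrays lay above 9.7, the monolayer and xenograft arrays below 8.6, with polyHEMA replicate 1 near the former and replicate 2 near the latter. ELOVL6 rose 5.38-fold in MG4d (2.43 ± 0.61, adjusted p = 0.0296) and was 1.89 ± 0.61, adjusted p = 0.051 in MG7d, with its second probe at 2.52 and 2.15. ME1, the malic enzyme that supplies NADPH for synthesis, had values of 7.99 and 7.21 in 2D7d, 9.28 and 9.30 in MG4d, 9.12 and 8.90 in MG7d, 8.03 and 7.89 in the xenografts, 9.26 and 7.98 in PH4d and 8.79 and 8.26 in PH7d. It rose in MG4d (1.69 ± 0.42, adjusted p = 0.0285) and in MG7d (1.41 ± 0.42, adjusted p = 0.0449), and in the xenografts it was 0.36 ± 0.42, adjusted p = 0.485. ACACA, acetyl-CoA carboxylase, which makes the malonyl-CoA used by FASN, had values of 8.97 and 8.45 in 2D7d, 9.63 and 9.74 in MG4d, 10.36 and 10.42 in MG7d, 9.55 and 9.31 in the xenografts, 9.48 and 8.67 in PH4d and 9.65 and 8.70 in PH7d. The MG7d arrays were the highest pair, and ACACA rose 3.2-fold there (1.68 ± 0.37, adjusted p = 0.0302), with its second probe at 1.66.

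SCD, the desaturase that makes oleate from stearate, had values of 13.32 and 12.38 in 2D7d, 12.86 and 12.96 in MG4d, 14.06 and 13.96 in MG7d, 13.13 and 12.97 in the xenografts, 13.37 and 12.67 in PH4d and 13.25 and 12.96 in PH7d. It rose in MG7d (1.16 ± 0.34, adjusted p = 0.0443), and the monolayer arrays were 0.94 apart, so that the change was 0.69 to 1.63 with 1 array left out. FASN, the synthase that builds palmitate, had values of 13.57 and 13.72 in 2D7d, 12.85 and 13.34 in MG4d, 13.31 and 13.58 in MG7d, 12.82 and 12.49 in the xenografts, 13.16 and 14.03 in PH4d and 13.45 and 14.22 in PH7d. It was lowest in the xenografts, at -0.99 ± 0.37, adjusted p = 0.0579, and was -0.55 in MG4d and -0.20 in MG7d, none of them called. ACSS2, which makes acetyl-CoA from acetate, had values of 11.35 and 11.06 in 2D7d, 10.52 and 10.59 in MG4d, 12.03 and 11.75 in MG7d, 10.83 and 10.76 in the xenografts, 10.57 and 10.88 in PH4d and 10.56 and 10.76 in PH7d. Against 2D7d it was -0.65 ± 0.23, adjusted p = 0.0616 in MG4d and 0.68 ± 0.23, adjusted p = 0.0542 in MG7d, 2 changes of opposite sign that were not called. One other ACSS2 probe was lower in both (-0.96 and -0.34), while a second gave -0.61 and 0.59. ACLY, which makes cytosolic acetyl-CoA from citrate, lay between 9.58 and 10.25, ELOVL5 between 9.19 and 10.11 and FADS1, a desaturase of polyunsaturated fatty acids, between 5.84 and 7.32, and none of them was called in any comparison.

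Between MG4d and MG7d 1 gene rose and none fell, against 0.729 percent and 0.164 percent of all genes. That gene was ACSS2 (1.33 ± 0.23, adjusted p = 0.0371), whose MG7d arrays were at 12.03 and 11.75 and MG4d arrays at 10.52 and 10.59. The ACSS2 probe that was lower in both was higher at 7 days too. All 5 regulators were higher at 7 than at 4 days by sign, with a median of 0.61, against 0.03 over all genes, and none was called. The largest of the other changes were 1.13 ± 0.25, adjusted p = 0.0868 for TM7SF2, 1.10 ± 0.34, adjusted p = 0.207 for SCD and 1.06 ± 0.33, adjusted p = 0.212 for INSIG1. With the polyHEMA arrays left out of the fit these 3 and ACSS2 were called, where 5.62 percent of all genes were. Between PH4d and PH7d no gene was called, neither among the 31 nor among all genes, of which 0 percent rose and 0 percent fell. At an unadjusted p under 0.05, 0 of the 31 and 125 of all genes (1.14 percent) passed there. The fit did not pair the arrays, though same-numbered PH4d and PH7d arrays deviated alike (correlation 0.874). The spread between the polyHEMA replicates therefore left this test little power to find a change with time. With the replicate number added to the fit as 1 offset shared by all 6 groups, no gene was called either. Such an offset does not pair the polyHEMA arrays alone. No gene of the 31 passed the limma test of whether the change from 4 to 7 days differed between Matrigel and polyHEMA. That test is limited by the same spread between the polyHEMA replicates. ACSS2 came first in it (1.39 ± 0.32, adjusted p = 0.362), followed by TM7SF2 (1.23 ± 0.36, adjusted p = 0.554).

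The 2 kinds of 3D culture were also compared with each other at each time. The differences do not use the monolayer arrays, whose spread enters the shared estimate behind the tests. In PH4d against MG4d 1 of the 31 genes was higher and 2 lower, where 8.33 percent of all genes were higher and 3.91 percent lower. In PH7d against MG7d 1 was higher and 4 lower, against 5.57 percent and 3.84 percent. TM7SF2 was the gene that was higher each time, 9-fold at 4 days (3.17 ± 0.25, adjusted p = 0.000492) and 3.83-fold at 7 days (1.94 ± 0.25, adjusted p = 0.00234). With any 1 array left out the TM7SF2 differences were 3.05 to 3.29 at 4 days and 1.75 to 2.13 at 7 days. With only the 2 groups compared in the fit, 1 of the 31 genes was called at 4 days and none at 7 days. ACAT2 and SQLE were lower each time, ACAT2 by -1.25 ± 0.30, adjusted p = 0.0248 at 4 days and -1.57 ± 0.30, adjusted p = 0.0119 at 7 days, and SQLE by -1.43 ± 0.34, adjusted p = 0.0239 and, 4.05-fold, by -2.02 ± 0.34, adjusted p = 0.0065. INSIG1 (-1.35 ± 0.33, adjusted p = 0.0347) and ACSS2 (-1.23 ± 0.23, adjusted p = 0.0113) were called lower at 7 days. With 1 array left out the ACAT2, SQLE, INSIG1 and ACSS2 differences kept their sign, and their adjusted p reached 0.165, 0.161, 0.206 and 0.122 at most. Serum, culture surface and the Dispase step all differ between these groups and cannot be told apart.

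**Figure D5:**
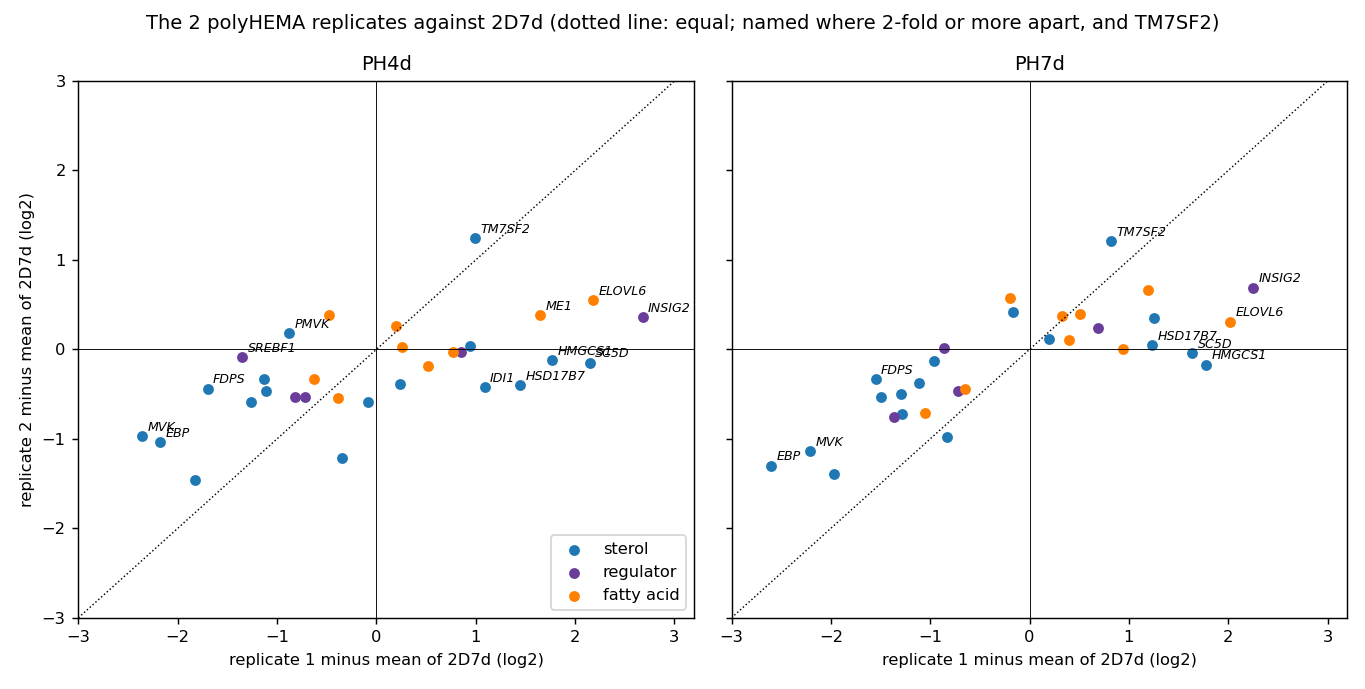
Log2 value minus the 2D7d mean on polyHEMA replicate 1 (horizontal) and replicate 2 (vertical) at 4 days and at 7 days (panels), with each point one of the 31 genes, colored by branch. HMGCS1, SC5D and ELOVL6 lie to the right near the horizontal axis, between 1.64 and 2.18 on replicate 1 and -0.17 and 0.55 on replicate 2, and DHCR7 and TM7SF2 lie near the diagonal.

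On polyHEMA the replicates disagreed for many of these genes. HMGCS1 was 1.77 above the 2D7d mean on PH4d replicate 1 and -0.12 on replicate 2, and 1.78 and -0.17 in PH7d. SC5D was 2.15 and -0.15 in PH4d and 1.64 and -0.04 in PH7d, and ELOVL6 was 2.18 and 0.55 in PH4d and 2.02 and 0.31 in PH7d. Replicate 1 was thus well above the monolayer mean for these 3 genes and replicate 2 nearer to it. EBP was -2.18 and -1.04 in PH4d and -2.60 and -1.30 in PH7d, below the monolayer on both replicates. By contrast TM7SF2 was 0.99 and 1.24 in PH4d and 0.82 and 1.21 in PH7d, and DHCR7 was -1.83 and -1.46 in PH4d and -1.97 and -1.39 in PH7d. With both replicate 1 arrays left out, which was chosen after seeing the data, 1 gene was higher and 3 lower than 2D7d in PH4d and likewise in PH7d, where 9.31 and 9.6 percent of all genes were called. With both replicate 2 arrays left out 7 were higher and 8 lower in PH4d and 7 higher and 10 lower in PH7d, where 43.5 and 40.6 percent of all genes were called. What sets the polyHEMA replicates apart was not tested.

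The spread between the polyHEMA replicates also entered every other comparison, since all groups shared 1 estimate of the spread. Without the 4 polyHEMA arrays in the fit, 7 of the 31 genes rose and 7 fell in MG4d, where 39.5 percent of all genes were called. The added genes were HMGCS1, IDI1, MSMO1, SC5D and INSIG2, which were higher, and MVK and EBP, which were lower. In MG7d 12 rose and 4 fell, against 40.7 percent of all genes, with HSD17B7, SC5D, INSIG2 and ELOVL6 added to the higher and MVK, PMVK and SREBF1 to the lower. In the xenografts 4 rose and 7 fell, against 43.9 percent of all genes, with HMGCS1, SC5D and INSIG2 added to the higher. With 1 of the 4 arrays compared left out and the polyHEMA arrays kept, no gene was called in MG4d or MG7d and DHCR7 alone in the xenografts.

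A list of 43 other genes of sterol and fatty acid metabolism, of which 35 were tested, was counted in the same fit. Of the 35, 4 rose and 6 fell in MG4d, where 10.2 and 11.5 percent of all genes did, and 6 rose and 4 fell in MG7d, where 10.8 and 10.3 percent did. None fell in PH4d or PH7d, where 2 and 3 rose against 2.58 and 3.87 percent of all genes, and 7 rose and 4 fell in the xenografts against 16.4 and 14.7 percent. Their median log2 change was 0.10, 0.35, 0.09, 0.11 and 0.12 in that order. MYLIP, the ubiquitin ligase that marks lipoprotein receptors for breakdown, rose in all 5 groups, among them by 2.51 ± 0.42 in MG7d, 2.22 in the xenografts, 2.12 in PH4d (arrays at 11.66 and 10.79) and 2.27 in PH7d (11.98 and 10.76), with the monolayer arrays at 9.18 and 9.02. LPIN1, a phosphatidate phosphatase of triglyceride synthesis, rose by 2.15 ± 0.56 in MG4d, 2.90 in MG7d and 1.72 in the xenografts, and was lower in PH7d (arrays at 10.67 and 9.10) than in MG7d (12.23 and 12.10), by -2.28 with an adjusted p of 0.0347. ELOVL1 and TECR, which act in the lengthening of long fatty acids, fell in both Matrigel groups and in the xenografts, with log2 changes of -1.31, -1.57 and -1.73 for ELOVL1 and -1.41, -1.23 and -1.14 for TECR. HACD3 and HACD2, also fatty acid genes of the list, went the other way. HACD3 rose in MG7d (1.97) and in the xenografts (1.92), and HACD2 rose in the xenografts (1.83). SCD5, a second stearoyl desaturase, fell in MG4d (-1.41 ± 0.23) and MG7d (-1.20) in contrast to SCD. GGPS1, which makes geranylgeranyl diphosphate from the product of FDPS, rose in MG7d (2.26 ± 0.65) and in the xenografts (1.92).

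In polyHEMA ACSL5, an acyl-CoA synthetase, was at 10.67 and 10.07 in PH4d and 11.07 and 10.42 in PH7d, against 8.53 and 8.38 on the monolayer arrays. It rose by 1.92 ± 0.30 in PH4d (adjusted p = 0.00993) and by 2.29 in PH7d (adjusted p = 0.00348), and it was also higher than in Matrigel at 4 days (1.85) and at 7 days (1.57). ACSL4, of the same family, rose in MG7d (2.21 ± 0.68) and in the xenografts (2.51). In the xenografts the cholesterol exporter ABCA1 rose (2.35 ± 0.72, adjusted p = 0.0371) and NR1H3, the oxysterol receptor LXR alpha, fell (-1.47 ± 0.27, adjusted p = 0.0106). MLXIPL, the carbohydrate response factor that shares targets with SREBF1, fell in MG4d (-1.27 ± 0.28) and was 1.62 higher in MG7d than in MG4d (adjusted p = 0.0394).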

How the data were processed

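Total RNA of 12 JIMT1 samples, 6 groups of 2 biological replicates by the labels, was hybridised to Illumina HumanHT-12 v4 arrays. The authors deposited the mean bead intensity of each of 47323 probes, with no background subtracted, and beside it a detection p-value of the probe against the negative controls of its array. They also deposited a table of log2 values, which per the study's methods came from variance stabilization in lumi, and which hold the same sorted values on every array. Of its probes, 81.41 percent stood under another identifier than in the file of intensities, so it was matched by rank order of values and used as an alternative only.

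Intensities were corrected, quantile normalized and put on a log2 scale with neqc (offset 16) in limma 3.58.1 (R 4.3.3). Of the probes, 30113 had 1 gene symbol, 8 had several and 17202 were unnamed. Probes entered the fit if the 2 arrays of any group both had a detection p below 0.01, and a gene was represented by its brightest kept probe on average. A bound took the lowest signal among detected probes for the dim group and left out the spread between arrays. One mean per group was fitted to 10970 genes over all 12 arrays, with Benjamini-Hochberg adjustment over all genes of each of 9 comparisons and a call required an adjusted p below 0.05 with a change of 2-fold or more. Replicates differ as samples by the labels, and p-values measure the spread between them. The fit was tested on simulated data. How it behaves where groups differ in spread and deviate alike, as the polyHEMA groups did, was not tested. Full array values were given for genes past the test or 2-fold apart and for the regulators, the others as ranges. The genes and lists were chosen with earlier results of these data known. Alternatives changed the background correction, offset, normalization, filter, probe rule, table, fold limit, arrays fitted, replicate block and each array in turn. Leaving out the polyHEMA replicates together was added after seeing the data.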

Additional observations from a re-analysis of the deposited data

Results flagged for a closer look

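The 8 differences between polyHEMA and Matrigel cultures of the same age that passed the limma test were singled out because the effect of leaving the monolayer differed between the 2 kinds of 3D culture. At 4 days TM7SF2 was 3.17 higher in polyHEMA on the log2 scale, while ACAT2 (-1.25) and SQLE (-1.43) were lower. At 7 days TM7SF2 was 1.94 higher, and SQLE (-2.02), ACAT2 (-1.57), INSIG1 (-1.35) and ACSS2 (-1.23) were lower. Most of these calls were lost with only the 2 groups compared in the fit. Against 2D7d, TM7SF2 was -2.06 in MG4d and 1.11 in PH4d, with all MG4d arrays below and all PH4d arrays above both monolayer arrays. SQLE was 1.11 in MG7d and -0.91 in PH7d. No single array was tested as an outlier, since groups held 2 arrays.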

How the results depend on the processing

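Counts are genes called of 31, with the reported count in parentheses at its first mention. Calls moved most with the arrays that set the spread. With only the groups compared in the fit, MG4d had 14 calls (7 reported), MG7d 16 (9), MG7d against MG4d 4 (1), PH4d 0 (2), PH7d 0 (3), PH4d against MG4d 1 (3) and PH7d against MG7d 0 (5). Without the polyHEMA arrays in the fit MG4d had 14, MG7d 16 and MG7d against MG4d 4. Without both polyHEMA replicate 1 arrays, and likewise without both replicate 2 arrays, MG4d had 14, MG7d 16 and MG7d against MG4d 4. Without the replicate 1 arrays PH4d had 4 calls, PH4d against MG4d 15, PH7d against MG7d 16 and the F test 27 (8). Without the replicate 2 arrays PH4d had 15, PH7d 17, PH7d against MG7d 9 and the F test 29. Keeping all probes without a filter gave 3 calls in MG7d and 4 in the xenografts (8), the deposited log2 table gave 1 in PH4d, and median scaling and the mean of kept probes each gave 0 in MG7d against MG4d. All other counts under these alternatives, a larger offset, no background correction and no fold limit stayed within 1.5 times.

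With 1 array left out, a lone array being assumed to vary like the other groups, counts ranged from 0 to 0 in MG4d, MG7d and MG7d against MG4d, 1 to 1 in the xenografts, 0 to 14 in PH4d, 0 to 9 in PH7d, 1 to 10 in PH4d against MG4d, 1 to 8 in PH7d against MG7d, 0 to 0 in PH7d against PH4d and 3 to 23 for the F test. Of 152 such values of called genes 125 lost the call and none changed sign. One uncalled value reversed, SC5D in PH4d, which was 1.00, -0.15 without PH4d replicate 1 (also without both replicate 1 arrays) and 2.15 without PH4d replicate 2.

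The labels do not pair the replicates across groups. With the replicate number as a block MG4d had 13 calls, MG7d 15, PH4d 4 and the F test 20, and no call was lost. The calls over all genes grew as well. They went to 1978 higher and 1735 lower in MG4d, from 1119 and 1267. In MG7d they were 2241 and 1725, from 1187 and 1133, and in PH4d 452 and 373, from 283 and 202. Deviations of same-numbered arrays correlated at 0.874 between PH4d and PH7d and at -0.116 to 0.449 elsewhere. A dim signal limits CYP51A1, SREBF2 and INSIG2, whose changes near background are understated.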
